A study of Mus musculus with 12 samples.

Results

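The genes described here encode voltage-gated and related ion channels of mouse hippocampus: potassium (Kcn), sodium (Scn), calcium (Cacn), chloride (Clcn) and hyperpolarisation-activated (Hcn) channels and their auxiliary subunits. They were chosen by name alone, as every probe set whose annotation held 1 gene symbol beginning with Kcn, Cacn or Clcn, or with Scn or Hcn and then a digit. This gave 68 genes, of 8251 genes with a single symbol on the array, measured by 88 probe sets, and each gene was represented by its brightest probe set over all 12 arrays. Of these 68 genes, 35 passed the filter on dim signals and were tested, and 33 did not. The arrays came from mice that carry VP16-CREB, a form of the transcription factor CREB fused to a viral activation domain and therefore active without a stimulus, whose expression is held silent by doxycycline (dox). The question of the study was which genes follow the transgene at the times when long-term potentiation was altered.

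Each array held RNA pooled from mice of the same genotype and time of induction, 6 to 10 mice for the hippocampal samples. Wild-type hippocampus (n = 2) and transgenic (VC) hippocampus kept on dox (n = 1) form the never-induced group of 3 arrays. Transgenic hippocampus was taken 1 week (n = 2), 2 weeks (n = 2) and 5 weeks (n = 1) after dox removal, which gives 5 induced arrays. A reversed sample (n = 1) had the transgene on for 3 weeks and then off again for 2 weeks with dox, and its description calls it wild type although its title calls it VC. CA1, a subfield of the hippocampus, was dissected out for the other 3 arrays: 1 of wild-type mice, and 2 of transgenic mice that had been without dox for 3 weeks. The labels give neither the age of the mice nor the promoter that drives the transgene, and in the published line the Camk2a promoter restricts its switch to forebrain neurons. Nothing in the labels says whether the pools of a group came from separate animals. The p-values therefore measure the spread between pooled samples, which may be technical. Where the induced arrays form 1 group, that spread also holds differences between the times of induction. The never-induced group likewise joins wild-type and on-dox samples.

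Most voltage-gated channels open when the membrane depolarises, while the Hcn channels open when it hyperpolarises. Sodium channels carry the upstroke of the action potential, potassium channels repolarise the cell and set its threshold, and calcium channels couple firing to transmitter release and to signalling towards the nucleus, where CREB acts. CREB binds the cAMP response element, whose full palindrome is TGACGTCA and whose shorter core is TGACG, or CGTCA on the other strand.

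Promoter windows from RefSeq (GRCm38.p6), from 250 bases before to 50 bases after an annotated start, were found for 53 of the 68 genes and gave 70 windows. The palindrome TGACGTCA occurred in 2 of the 70 windows (2.86%), those of Clcn3 and Clcn4, and in 1.79% of all 32851 windows. The core TGACG, searched on both strands and including its occurrences within the palindrome, was in 18 of 70 windows (25.7%) against 20.8% of all windows. By gene the core was in 17 of 53 members (32.1%) and in 23.0% of all genes. These are letter matches, not binding sites. The sequences below are upstream bases of the member that passed the test with time (Kcne1l), of the member with the palindrome before its start (Clcn4) and of a member whose level varied widely between hippocampal arrays (Cacna2d1), with a stretch of 30 bases of Clcn3 that holds the palindrome just after its start. They are written 5′ to 3′ on the strand of the gene, with capitals marking TGACGTCA and the core (TGACG or CGTCA). The Kcne1l bases are at chrX:142306199-142306448 on the minus strand, those of Clcn4 at chr7:7299558-7299807 on the minus strand, those of Cacna2d1 at chr5:15934441-15934690 on the plus strand and those of Clcn3 at chr8:60983283-60983312 on the minus strand.
Kcne1l: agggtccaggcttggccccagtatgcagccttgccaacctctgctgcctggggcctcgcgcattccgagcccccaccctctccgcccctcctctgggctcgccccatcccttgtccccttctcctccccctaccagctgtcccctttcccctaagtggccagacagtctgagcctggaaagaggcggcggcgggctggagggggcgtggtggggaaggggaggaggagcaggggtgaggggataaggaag
Clcn4: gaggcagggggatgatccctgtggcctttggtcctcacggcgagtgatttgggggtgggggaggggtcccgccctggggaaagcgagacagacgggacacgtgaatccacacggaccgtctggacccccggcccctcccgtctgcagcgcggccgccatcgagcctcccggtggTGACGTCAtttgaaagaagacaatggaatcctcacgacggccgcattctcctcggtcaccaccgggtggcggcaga
Cacna2d1: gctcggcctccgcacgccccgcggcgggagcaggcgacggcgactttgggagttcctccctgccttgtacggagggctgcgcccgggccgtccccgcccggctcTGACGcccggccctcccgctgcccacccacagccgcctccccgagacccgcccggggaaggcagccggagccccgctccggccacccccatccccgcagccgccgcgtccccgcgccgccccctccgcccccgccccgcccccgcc
Clcn3: CGTCAacgcgcTGACGTCAcgcgcgtgcga
The palindrome of Clcn4 begins at position -76 from the annotated start and the core of Cacna2d1 at position -146. The Kcne1l stretch holds neither motif, which says only that these letters are not in this window.

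Levels are given on a log2 scale after every array was brought to the same trimmed mean, with a floor at 6.04. Pearson correlations of these values were 0.932 to 0.978 between hippocampal arrays, 0.907 to 0.947 between CA1 arrays and 0.828 to 0.921 between hippocampus and CA1. The authors' values came on 2 scales, with wild-type hippocampus array 1 and the 3 CA1 arrays on the lower one, so scale and region nearly coincide. Wild type 1 stood apart from the other never-induced arrays in several members, as given below. Pdyn, a gene known to follow VP16-CREB, lay between 6.04 and 6.79 on the never-induced arrays, between 8.93 and 11.13 on the induced ones and at 6.04 in the reversed sample, as the titles order them. The CA1 dissection had lower levels of Dsp, a dentate marker (limma, log2 difference -1.23, adjusted p = 0.0115), and higher levels of Pou3f1, a CA1 marker (0.68, adjusted p = 0.0164). Of the other tested CA1 markers Wfs1 did not pass, and Ccn3 had a difference of -0.41 that did not pass either (adjusted p = 0.0924). Prox1, a dentate marker, was not bright enough to be tested. Of 5 tested dentate markers 1 was called (Dsp), and their median was -0.35. The tested markers of CA3 and CA2 were not lower in CA1 (2 of 2 positive, median 0.12, 0 called).

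No ion channel gene passed the test for a difference between induced and never-induced whole hippocampus, and most differences were small. In the comparison of 5 induced with 3 never-induced arrays, 0 of 35 members passed an adjusted p of 0.05 with limma, and 0 had an unadjusted p under 0.05. Over all 7069 tested probe sets the comparison called 2 (0.0283%), with 223 at an unadjusted p under 0.05. The members' differences ran from -0.42 to 0.77 with a median of -0.03, and the median over all tested probe sets was -0.02. Split by time, 0 of 35 members passed after 1 week, where 0.0283% of all tested probe sets were called. The same held after 2 weeks (0 members, 0.156% of all), after 5 weeks (0 members, 0.99%) and in the reversed sample (0 members, 0.0%). Members with an unadjusted p under 0.05 numbered 4, 2, 4 and 0 in these comparisons, in that order, against 354, 315, 516 and 239 of the 7069 tested probe sets. These comparisons share the never-induced arrays.

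**Figure D1:**
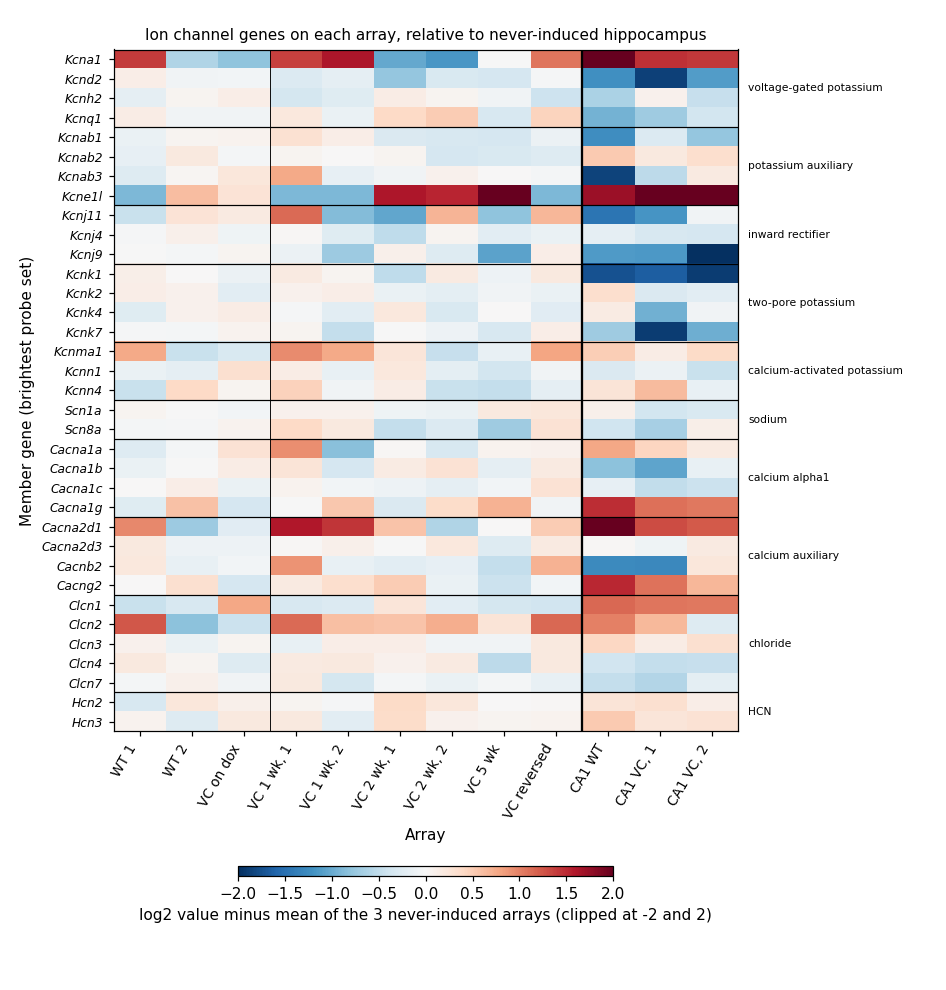
Level of each of the 35 tested genes (rows, ordered by channel family) on each of the 12 arrays (columns), as the log2 value minus the mean of the 3 never-induced arrays, with red higher and blue lower and the colours clipped at -2 and 2. Kcna1, Kcne1l and Cacna2d1 change colour between arrays of the never-induced group itself, and Kcnk1, Kcnd2 and Kcnj9 are blue on all 3 CA1 arrays (right of the thick line).

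The members' median difference was 0.04 after 1 week of induction, -0.05 after 2, -0.15 after 5 and 0.09 in the reversed sample, against -0.01, -0.01, -0.03 and 0.02 over all tested probe sets. At 5 weeks 25 of 35 members had a negative difference and 10 a positive one, while at 1 week 12 were negative and 23 positive. The 5-week values come from 1 array. On that array the summed scaled signal of 11 microglia markers was 60546, against 17157 to 21024 on the never-induced arrays and 17682 to 18125 at 1 week, and 6 of the 10 tested (C1qa, C1qb, C1qc, Ctss, Laptm5 and Tyrobp) passed the test upwards. The summed signal of 7 astrocyte markers was 58103 there, against 36335 to 39530 on the never-induced arrays, with Gfap called. The 5 tested dentate markers had a median of -0.75, with Lct called lower and Pdyn higher, and the 6 neuron markers a median of 0.00, with 3 of 6 positive. In bulk RNA a lower share of neurons and less RNA of a channel per neuron cannot be told apart, and the part of these markers in the members' values was not tested.

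**Figure D2:**
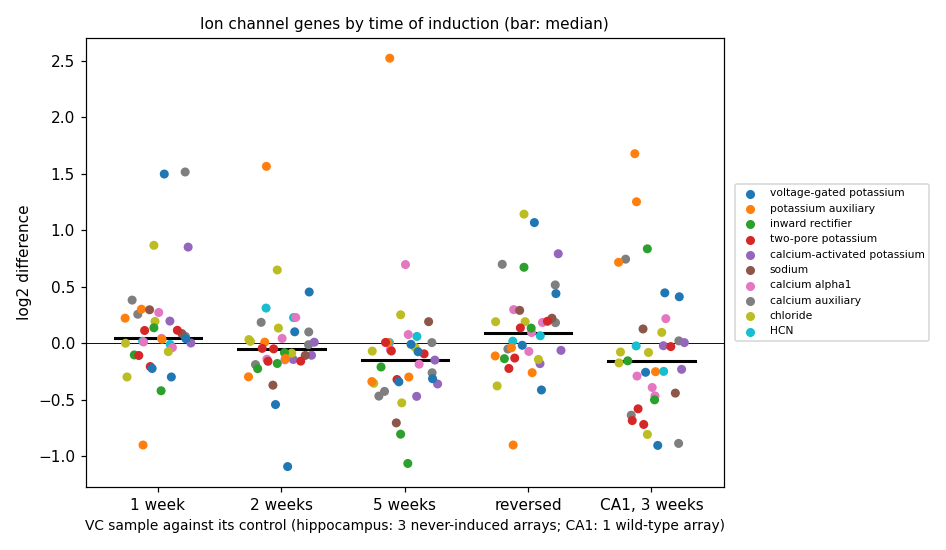
Log2 difference of each of the 35 tested genes (points, coloured by channel family) between VC samples and their controls, by time of induction, with the black bar at the median. In hippocampus the medians lie between -0.15 and 0.09, and Kcne1l is the orange point at 2.52 at 5 weeks.

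Kcne1l was the member that passed a test with time. It encodes a single-span KCNE-family subunit that associates with voltage-gated potassium channels and reduces their current. It read 6.04, 7.56 and 7.22 in wild type 1, wild type 2 and the on-dox sample. At 1 week it was at the floor of 6.04 on both arrays, at 2 weeks it read 8.55 and 8.46, at 5 weeks 9.46, and the reversed sample was again at 6.04. The 2-week and 5-week arrays therefore lay above every never-induced array, and the 1-week and reversed arrays lay at or below them. Between 5 weeks and 1 week Kcne1l rose by 3.42 (SE 0.52), which is at least 10.7-fold because both 1-week arrays were at the floor (limma, adjusted p = 0.0272). It was 1 of 35 members called in that comparison, where 0.637% of all tested probe sets were called. The 1-week arrays, both at the floor, add no spread to the fit. The filter asked for signal above the array's median on at least 2 arrays. Kcne1l had its highest values on the 2-week, 5-week and CA1 arrays. With no filter the call was lost.

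Against the never-induced arrays, the 5-week difference of Kcne1l was 2.52 (SE 0.49), at least 5.74-fold, with an adjusted p of 0.0695. That difference passed without wild-type hippocampus array 1 (2.07, adjusted p = 0.0260). The 2-week difference was 1.56 (SE 0.39, adjusted p = 0.395). The call of 5 weeks against 1 week was lost when the on-dox array (adjusted p = 0.0583), either 1-week array (0.163 and 0.130) or either 2-week array (0.0607 each) was left out, with the difference itself at 3.42 each time. The wild-type CA1 array had Kcne1l at 8.66, and the VC ones at 10.12 and 9.69. The summed scaled signal of the microglial markers was 32561 to 34451 at 2 weeks, 27436 in wild-type CA1 and 71977 to 73647 in VC CA1. In the reversed sample it was 26698, above every never-induced array, where Kcne1l was at the floor. The part of these markers in the Kcne1l values was not tested.

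**Figure D3:**
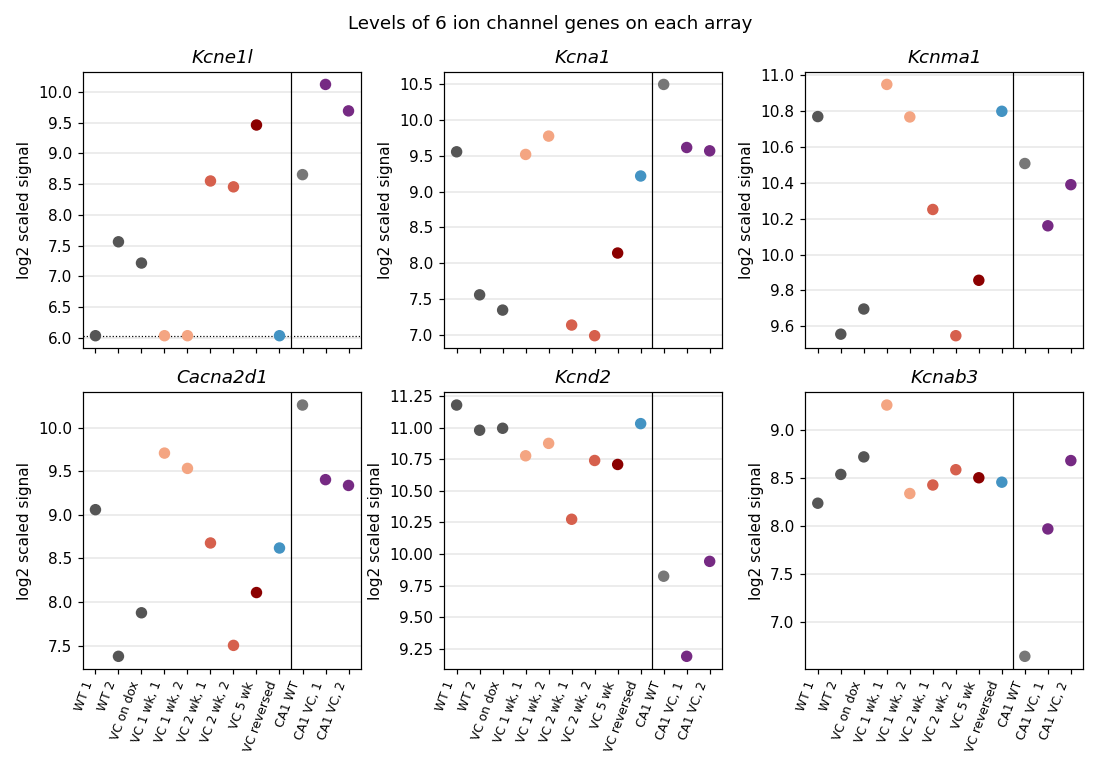
Log2 scaled signal (vertical axes, each with its own range) of 6 genes on each of the 12 arrays (horizontal axes, with CA1 to the right of the vertical line), 1 point per array. Kcne1l is at the floor (dotted line) on 4 hippocampal arrays, on each of which Kcna1 stands above 9, and the 5 induced hippocampal arrays of Kcnd2 lie below the 3 never-induced ones.

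Among the pore-forming voltage-gated potassium channels, 4 of 16 were bright enough to test. Kcna1, a low-threshold delayed rectifier found on axons, read 9.56, 7.56 and 7.34 in wild type 1, wild type 2 and the on-dox sample. It was 9.52 and 9.78 after 1 week, 7.13 and 6.98 after 2, 8.14 after 5 and 9.22 in the reversed sample. Wild type 1 thus read like the 1-week and reversed arrays, and the other never-induced arrays like the 2-week ones. Whether the array labelled wild type 1 carries the right label was not tested. Its Pdyn value was at the floor, as in the reversed sample, and every difference from the never-induced mean includes it. The differences from the never-induced mean were 1.5 (SE 0.56, adjusted p = 0.969) at 1 week and -1.09 at 2 weeks, neither past the threshold. The 2-week value was -0.39 without wild type 1 and -1.50 without the on-dox array. Without wild type 1, Kcna1 rose at 1 week by 2.20 (adjusted p = 0.0271).

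Wild type 1 also stood apart from the other never-induced arrays in 3 further members, Kcnma1, Cacna2d1 and Clcn2. Kcnma1, the large-conductance calcium-activated potassium channel, read 10.77 in wild type 1 but 9.56 in wild type 2 and 9.70 on dox. It stood at 10.95 and 10.77 at 1 week and 10.80 in the reversed sample, against 10.25 and 9.55 at 2 weeks and 9.86 at 5 weeks. Its differences were 0.85 (SE 0.36) at 1 week and 0.79 in the reversed sample. Cacna2d1, an auxiliary subunit that carries calcium channels to the membrane and the target of gabapentin, read 9.06, 7.38 and 7.88 on the never-induced arrays, 9.71 and 9.53 after 1 week, 8.68 and 7.5 after 2, 8.11 after 5 and 8.62 in the reversed sample. Its differences were 1.51 (SE 0.48) at 1 week against never-induced and -1.51 (adjusted p = 0.716) between 5 weeks and 1 week. Clcn2, an inwardly rectifying chloride channel, read 8.70, 6.64 and 7.02 on the never-induced arrays and 7.70 to 8.59 on the induced ones, a difference of 0.66 that did not pass and that was 1.28 without wild type 1 and 0.25 without wild type 2. Unlike Kcna1, its 2-week arrays (8.02 and 8.19) lay near its 1-week ones (8.59 and 8.05), and 2-week array 1 of Cacna2d1 lay above the reversed sample. None of these was called, and each overlapped between its groups in the comparison of induced with never-induced arrays.

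The leading principal component of all tested probe sets over the 9 hippocampal arrays held 26.5% of the variance. It placed wild type 1 (-8.67), the reversed sample (-15.4) and the 1-week arrays (-20.6 and -5.42) on one side, and wild type 2 (1.99), on dox (3.32), 2 weeks (20 and 11.5) and 5 weeks (13.4) on the other. The 6 tested neuron markers had median differences of 0.93 at 1 week, -0.61 at 2 weeks, 0.00 at 5 weeks and 0.70 in the reversed sample, and 0 of 6 passed in each. Positive differences numbered 4, 1, 3 and 5 of 6, in that order. Their summed scaled signal was 60384 to 62826 at 1 week, within the 53175 to 64443 of the never-induced arrays. Camk2a, a neuronal kinase, read 8.88, 7.0 and 8.95 on the never-induced arrays, 10.79 and 8.96 after 1 week, 6.96 and 7.15 after 2, 8.84 after 5 and 9.77 in the reversed sample. Thy1, a brighter neuron marker, read 14.37, 14.60 and 14.75 on the never-induced arrays and 14.18 and 14.49 after 1 week. Whether the neuron markers have a part in the values of Kcna1, Kcnma1 and Cacna2d1 was not tested. The range over the 9 hippocampal arrays had a median of 0.726 among members and of 0.668 among all tested probe sets, and 7 of 35 members exceeded the 90th percentile of all (1.38).

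Kcnd2, the Kv4.2 subunit of the dendritic A-type current of pyramidal cells, was the member whose induced and never-induced arrays did not overlap. It read 11.18, 10.98 and 11 in wild type 1, wild type 2 and on dox, and 10.78 and 10.88 after 1 week of induction, 10.28 and 10.74 after 2 and 10.71 after 5. The reversed sample, at 11.03, lay among the never-induced arrays. The difference was -0.38 (SE 0.19) and did not pass (limma, adjusted p = 0.999), as was the case at 2 weeks (-0.54, SE 0.24). Of 35 members 1 had every induced array below every never-induced one, against 1.66% of all tested probe sets, and 0 had every induced array above, against 1.71%. Another Kcnd2 probe set, too dim to be tested, read 7.28 to 7.74 on the never-induced arrays and 6.74 to 8.66 on the induced ones, and so overlapped.

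Of the remaining voltage-gated potassium channels tested, Kcnh2 (the ERG channel) ranged from 9.79 to 10.35 over hippocampus, with its lowest value in the reversed sample (difference -0.42, not called). Kcnq1, a slowly activating channel better known from heart, ranged from 9.86 to 10.68 and had differences of 0.45 (SE 0.18) at 2 weeks and 0.44 in the reversed sample, neither called. Its brightest probe set and that of Kcnd2 belong to the 16 member probe sets whose names mark shared sequence or relaxed probe selection. Another Kcnq1 probe set, too dim to be tested, read 6.04 to 7.52 over all 12 arrays. The other 12 genes of this family were dim. Kcnh1 and Kcna6 were at the floor on all 9 hippocampal arrays, and Kcna5 did not exceed 6.72 there. Kcna2 ranged from 6.04 to 8.56 there, Kcna4 from 6.04 to 7.98, Kcnc1 from 7.27 to 8.36 and Kcnd3 from 6.55 to 8.67. Kcna3 read 7.28 to 7.44 on the never-induced arrays, 7.69 to 8.12 on the 1-week and 2-week arrays, 7.41 after 5 weeks and 7.93 in the reversed sample. Kcna7 ranged from 6.04 to 7.61 over hippocampus, and the electrically silent modifiers Kcns1 from 7.35 to 7.91 and Kcns2 from 7.54 to 8.62. Kcnd1 read 7.38, 7.02 and 7.51 on the never-induced arrays and was at the floor on 4 of 5 induced arrays, with 7.42 on the other and 7.06 in the reversed sample. It was named after its values were seen, and when all probe sets were tested its difference of -0.99 did not pass.

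The potassium channel beta subunits, cytoplasmic proteins that alter inactivation, showed no called difference in hippocampus. Kcnab1 ranged from 10.66 to 11.30 over the 9 arrays, Kcnab2 from 12.40 to 12.93 and Kcnab3 from 8.24 to 9.26, and 0 of 3 were called at any time. Inward rectifiers hold the resting potential, and those of the GIRK group answer to G proteins. Here 3 of 11 were tested. Kcnj9, a GIRK subunit, read 9.84, 9.82 and 9.90 on the never-induced arrays, 9.73 and 9.13 after 1 week, 9.95 and 9.59 after 2 and 8.79 after 5, with 9.99 in the reversed sample. The 5-week array was its lowest in hippocampus, and the difference of -1.07 (SE 0.38) did not pass (adjusted p = 0.506). Another probe set of Kcnj9 had a 5-week difference of -0.37. Kcnj4 ranged from 9.64 to 10.25, and Kcnj11, the pore of the ATP-sensitive channel, varied from 7.23 to 9.40 with no order by group. All 3 had negative differences at 5 weeks, with a median of -0.81, also after quantile normalisation. The GIRK subunits Kcnj3 (6.04 to 7.91) and Kcnj6 (6.56 to 7.83) were too dim to be tested, and Kcnj2 and Kcnj5 were at the floor on all 12 arrays. Kcnj1 ranged from 7.25 to 8.13, Kcnj8 from 6.70 to 7.32, Kcnj12 from 6.04 to 6.68 and Kcnj15 from 6.04 to 7.27.

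The tandem-pore channels carry leak current. Kcnk1 ranged from 12.18 to 12.88, Kcnk2 from 10.78 to 11.13, Kcnk4 from 9.39 to 9.89 and Kcnk7 from 9.13 to 9.74 over the 9 arrays. All 4 had a negative difference in induced against never-induced arrays, but the median was -0.05 and 0 of 4 passed. Among calcium-activated channels, Kcnn1 (SK1) ranged from 9.82 to 10.5 and Kcnn4 from 7.63 to 8.55. Kcnu1 (6.04 to 8.31), Kcne1 (6.04 to 8.11) and Kcnk3 (6.04 to 6.72) were dim, and Kcnmb1 was at the floor on all 12 arrays.

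Of 6 sodium channel genes 2 were tested. Scn1a, the Nav1.1 pore that dominates in fast-spiking interneurons, ranged from 11.34 to 11.69. Scn8a, the Nav1.6 pore of the axon initial segment, read 9.94, 9.96 and 10.05 on the never-induced arrays, 10.38 and 10.18 after 1 week, 9.51 and 9.71 after 2, 9.28 after 5 and 10.28 in the reversed sample. Its 2-week and 5-week arrays lay below every never-induced array and its 1-week arrays above. The difference between 5 weeks and 1 week was -1.0 (SE 0.30, adjusted p = 0.426), and that between 5 weeks and never-induced was -0.71 (SE 0.29, adjusted p = 0.610). Scn3a, Scn7a, Scn9a and Scn10a were at or near the floor, with no hippocampal value above 6.40.

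Of the pore-forming calcium channel genes, 4 of 7 were tested. Cacna1c, the L-type pore that signals to CREB, ranged from 10.26 to 10.74 over hippocampus and Cacna1b, the N-type pore of presynaptic terminals, from 9.36 to 9.98. Cacna1a, the P/Q-type pore, ranged from 7.67 to 9.43, and both of these extremes were the 1-week arrays. Cacna1g, a T-type pore, ranged from 8.0 to 9.03. Cacna1e, an R-type pore, was too dim (6.04 to 7.55), as were Cacna1h (6.04 to 6.84), Cacna1s (6.04 to 8.07) and the muscle subunit Cacng1 (6.04 to 8.09). Among the auxiliary subunits Cacna2d3 ranged from 11.05 to 11.51, Cacnb2 from 9.76 to 11.14 and Cacng2 (stargazin, which also traffics AMPA receptors) from 8.95 to 9.89. All 4 tested auxiliary genes had a positive difference at 1 week (median 0.32) and all 4 a negative one between 5 weeks and 1 week (median -0.77), under quantile normalisation too, and 0 of 4 passed in either.

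Of 6 chloride channel genes 5 were tested. Clcn3, an endosomal and vesicular exchanger, ranged from 12.64 to 12.97, the narrowest range among the tested members. Clcn4, a related exchanger whose upstream bases with the palindrome are given above, read 11.86, 11.74 and 11.42 on the never-induced arrays, 11.86 and 11.87 after 1 week, 11.75 and 11.86 after 2 and 11.15 after 5. The 5-week array was thus the lowest, with differences of -0.53 (SE 0.21, adjusted p = 0.601) against never-induced and -0.72 (SE 0.22, adjusted p = 0.444) against 1 week. Another Clcn4 probe set had a 5-week difference of 0.08. Clcn7, the lysosomal exchanger, ranged from 10.42 to 10.96, and Clcn1, the skeletal muscle chloride channel, from 7.27 to 8.49. Clcn5 was dim (7.02 to 8.20). The pacemaker genes Hcn2 (11.39 to 12.09) and Hcn3 (10.29 to 10.92) showed no called difference at any time.

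In CA1, 0 of 35 members passed between VC at 3 weeks (n = 2) and wild type (n = 1), a comparison that called 0.467% of all tested probe sets, and 4 members had an unadjusted p under 0.05, against 708 of the 7069 tested probe sets. The differences had a median of -0.16, against -0.02 over all tested probe sets, and 23 of 35 were negative. Microglial markers were higher on the same arrays (10 of 10 tested positive, median 1.48, Cd14 called), and the 3′/5′ signal ratio of Actb, a sign of RNA quality, was 1.83 in wild-type CA1 against 3.73 and 1.40 in VC. Their part in the members' values was not tested. The tandem-pore genes were all negative (4 of 4, median -0.63), also after quantile normalisation. The lone wild-type array is assumed to vary like the other groups. Kcnab3 was at 6.65 on the wild-type array and at 7.97 and 8.68 on the VC arrays, 1.68 higher (SE 0.40, 3.20-fold, adjusted p = 0.133). The wild-type CA1 array and VC array 1 both lay below all hippocampal values of Kcnab3. The difference rests on the lone wild-type array. Without VC array 1 the difference passed, at 2.03 (adjusted p = 0.0449).

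Kcnab1 was at 9.76 on the wild-type array, with the VC arrays at 10.72 and 10.22, a difference of 0.72 (SE 0.32, adjusted p = 0.484). Kcnk2, the TREK-1 leak channel, read 11.32 against 10.70 and 10.78 (-0.58, SE 0.22, adjusted p = 0.407), and Scn1a read 11.58 against 11.11 and 11.17 (-0.44, SE 0.20, adjusted p = 0.484). In each of these 3 genes both VC arrays lay on the same side of the wild-type array by the brightest probe set. Another tested Scn1a probe set read 9.59 against 9.11 and 10.05, a difference of -0.01. Another Kcnab1 probe set, too dim to be tested, read 7.54 against 8.12 and 6.93. Tested directly, the CA1 effect differed from the hippocampal effect in 0 of 35 members, with 0.0566% of all tested probe sets called. Its values included 1.55 (SE 0.46, adjusted p = 0.480) for Kcnab3, 0.81 for Kcnab1, -0.55 for Kcnk2 and -0.47 for Scn1a. Kcnh1, a slowly gating EAG channel and among the dim genes, was at the floor on all hippocampal arrays but at 8.39 in CA1 of wild-type mice, with 6.83 and 6.39 under VC. With no filter it was called lower in VC CA1 (-1.78, adjusted p = 0.000256), where the 9 arrays at the floor add no spread to the fit.

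More members passed between the regions than over induction. Between the 3 CA1 arrays and the 8 never-induced and induced hippocampal arrays, 13 of 35 members passed, 5 higher and 8 lower in CA1. Over all tested probe sets 35.9% were called, 11.4% higher and 24.5% lower, so the members' count is near the background. With quantile normalisation the members split into 4 higher and 7 lower and all tested probe sets into 927 higher and 1229 lower, in place of 807 and 1732, while the median of all tested probe sets moved from -0.13 to -0.03. Every CA1 array lay above every one of those hippocampal arrays for 5 members (7.88% of all tested probe sets) and below for 5 (17.1%). With the deposited scale as a block 2 of these members passed, Kcnk1 and Clcn1, out of 288 probe sets called, and that block rests on the hippocampal array with the lower scale.

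**Figure D4:**
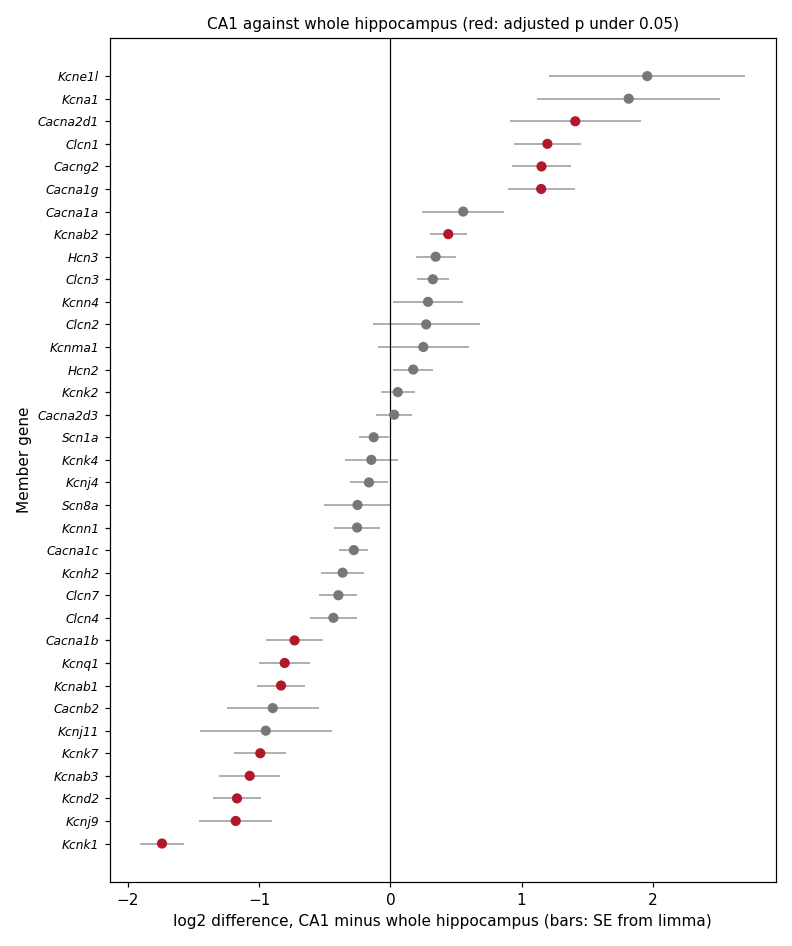
Log2 difference between CA1 and whole hippocampus for each of the 35 tested genes (points, bars are the SE from limma), with red points past an adjusted p of 0.05. Kcnk1 is the lowest at -1.74, and Cacna2d1, Clcn1, Cacng2, Cacna1g and Kcnab2 are the 5 red points above 0.

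Potassium channel genes were 7 of the 8 members that were lower in CA1, and 18 of the 35 tested. Kcnk1 was at 10.94, 11.04 and 10.78 on the CA1 arrays (wild type first here and below), against a lowest value of 12.18, a median of 12.72 and a highest of 12.87 in hippocampus. It was 3.34-fold lower (-1.74, SE 0.17, limma, adjusted p = 0.000157). Kcnd2 read 9.82, 9.19 and 9.94 in CA1 against 10.28, 10.83 and 11.18 (lowest, median and highest) in hippocampus, a difference of -1.17 (SE 0.19, adjusted p = 0.00147). For both genes the regions did not overlap. Kcnj9 was lower by -1.18 (SE 0.28, adjusted p = 0.00914), with 8.72, 8.71 and 7.72 in CA1 and a hippocampal minimum of 8.79, but another Kcnj9 probe set had a difference of 0.51 that did not pass (adjusted p = 0.265).

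Kcnk7 (-0.99, adjusted p = 0.00447) and Kcnq1 (-0.81, adjusted p = 0.0101) were lower without overlap as well. The other Kcnq1 probe set was too dim to be tested. Kcnab1 (-0.83, adjusted p = 0.00682), Kcnab3 (-1.07, adjusted p = 0.00603) and Cacna1b (-0.73, adjusted p = 0.0242) passed with overlapping arrays. Choroid plexus lies against the hippocampus, and its 3 tested markers Ttr, Folr1 and Kl were all lower in CA1 (median -1.94). The summed signal of its 5 markers was 421 to 825 in CA1 and 1032 to 10297 in hippocampus, Cldn2 was at or near the floor throughout, and Kl and Folr1 were above the floor in CA1. Microglial markers were higher in CA1 (10 of 10 positive, 4 called: C1qc, Cd14, Csf1r and Laptm5). Of 6 tested endothelial and mural markers 4 were positive (median 0.35), with Cdh5, Cldn5 and Flt1 called higher. Of 6 tested neuron markers 2 were positive (median -0.32), with Nefl and Snap25 called lower. The part of these cell types in the regional values was not tested.

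Calcium channel genes were 3 of the 5 members that were higher in CA1, and 8 of the 35 tested. Cacng2 was at 10.90, 10.46 and 10.05 in CA1 against 8.95 to 9.89 in hippocampus (1.15, SE 0.23, adjusted p = 0.00400). Cacna1g read 9.82, 9.45 and 9.40 against 8.0 to 9.03 (1.15, SE 0.26, adjusted p = 0.00725). These T-type and stargazin genes did not overlap between regions. Cacna2d1 read 10.26, 9.40 and 9.34 against 7.38 to 9.71, so it overlapped, and its difference of 1.41 (SE 0.50, adjusted p = 0.0494) fell to 0.22 (adjusted p = 0.894) with the scale block.

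Clcn1 read 8.86, 8.79 and 8.77 in CA1 against 7.27 to 8.49 in hippocampus (1.20, SE 0.25, adjusted p = 0.00574). Kcnab2 read 13.25, 12.93 and 13.07 against 12.40 to 12.93 (0.44, SE 0.14, adjusted p = 0.0350), and its other tested probe set had 0.85. Clcn3 did not overlap either, with 13.19, 12.94 and 13.10 against 12.64 to 12.92, but its brightest probe set did not pass (0.32, adjusted p = 0.0580). Its 3 other probe sets all passed but disagreed in direction, at -1.55, 0.58 and 0.97. Hcn2 also depended on the probe set, with 0.17 for the brightest and 1.09 (adjusted p = 0.00226) for the other. So did Clcn7, with -0.40 for the brightest, which did not pass, and -1.08 for the other, which did.

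Genes outside the rule that work with these channels were described from a list of scaffolds, calcium sensors, pumps and release proteins. Of 47 on the array, 37 were tested, and 0 passed in each of the comparisons over induction, reversal and VC against wild-type CA1. Their medians were -0.04 in induced hippocampus, 0.07 at 1 week, -0.12 at 2 weeks, -0.06 at 5 weeks, -0.14 between 5 weeks and 1 week, 0.07 in the reversed sample and -0.13 in VC CA1. Between regions 5 were higher in CA1 and 8 lower, 13 of 37 in all, which is near the 35.9% of all tested probe sets. Dlg4, the PSD-95 scaffold that clusters channels, was higher by 2.05 (adjusted p = 0.00536), and Dpp6, the accessory subunit of Kv4 channels, by 0.73 (adjusted p = 0.0212), while Kcnd2 itself was lower. Cntnap1 (-1.46), a paranodal protein, and Calb2 (-1.13), a calcium buffer, were among the lower ones.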

How the data were processed

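PolyA RNA was hybridised to 12 Affymetrix arrays (MG-U74Av2). The authors' deposited values are intensity on a linear scale, made with GCOS per the submitters' processing notes. Its version, its algorithm and the scaling were not given in the sources used here. Trimming 2% at each end left a mean of 500.3 to 500.4 on 4 arrays and 3002 on the other 8. Each array was rescaled to 1000, floored at the 20th percentile of all values (65.7) and log2 transformed. Of 12422 probe sets that are not controls, 7069 lay above their array's median on at least 2 arrays and were tested with limma 3.58.1 (R 4.3.3; lmFit, eBayes, two-sided) and Benjamini-Hochberg adjustment over all of them. A fit with 5 levels, in which all induced hippocampal arrays form 1 level, gave induced against never-induced hippocampus and the CA1 comparisons. Its spread therefore includes differences between 1, 2 and 5 weeks. A fit with 7 levels gave the comparisons by time. A level of 1 array was assumed to vary like the others. The number of arrays limits the precision.

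The fit was tested on simulated data with 200 changed probe sets. For 2 weeks against never-induced it recovered 85 at a log2 shift of 1 and 198 at 2. For VC against wild-type CA1 it recovered 1 and 192. Calls among unchanged probe sets numbered 5 and 7 for 2 weeks, and 0 and 14 for CA1. The simulated spread came from the fit with 7 levels, so it lacks the differences between times that enter the fit with 5 levels. The CA1 counts may therefore be too high. The genes named are every member called in any of 9 comparisons, the 4 with the smallest p in each, the 3 brightest of each family and a list of channel genes. The members and lists were chosen with earlier results of these data known. Same-numbered arrays did not deviate together (r 0.0422, 0.0234 and -0.0968), so replicate numbers were not used as pairs. Alternatives covered the normalisation, floor, filter, variance trend, probe set choice, deposited scale and leaving out 9 arrays, 1 at a time. The 5-week, reversed and wild-type CA1 arrays, each the only array of its group, were not left out.

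Beside the channel partners, 10 cell type lists were read. In induced hippocampus the medians were 0.28 for choroid plexus, 0.11 for astrocytes, 0.61 for microglia, 0.00 for oligodendrocytes, 0.03 for endothelial and mural cells, 0.06 for interneurons, -0.26 for dentate granule cells (Pdyn called higher), -0.19 for CA1 pyramidal cells, 0.01 for CA3 and CA2 pyramidal cells and 0.06 for neurons, and no other gene of these lists was called.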

Additional observations from a re-analysis of the deposited data

Results flagged for a closer look

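Each tested member was checked for a single array standing apart among the 5 induced hippocampal arrays, by the gap to its nearest neighbour over the whole range (critical value 0.71). Of 35 members 5 were flagged, and chance flags about 1 in 20. Cacnb2, a calcium channel beta subunit, read 11.14 on 1-week array 1, with the next array at 10.09. Kcnab3 was also highest there, at 9.26 with the next at 8.59. That array had the lowest 3′/5′ signal ratios of the hippocampal arrays. They were 0.87 for Gapdh (next lowest 1.05) and 1.80 for Actb (next lowest 2.13). The part of RNA quality in its values was not tested. Clcn1 read 7.95 on 2-week array 1, with the next at 7.51. Kcnd2 was lowest on the same array, at 10.28 with the next at 10.71. Clcn4 read 11.15 on the 5-week array, with the next at 11.75. Since 5 weeks is a group of 1 array, the Clcn4 value cannot be told apart from a difference by time.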

How the results depend on the processing

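The members' count stayed at 0 under every alternative run in induced hippocampus, at 2 weeks and in the reversed sample. Without wild-type hippocampus array 1, with the deposited scale as a block or with the higher scale alone, it went from 0 to 1 at 1 week (Kcna1), from 0 to 1 at 5 weeks (Kcne1l; also without wild type 2) and from 1 to 2 between 5 weeks and 1 week (Kcna1 and Kcne1l). That last count was 0 with no filter (Kcne1l, adjusted p = 0.166). Leaving out single arrays gave 0 to 1 at 1 week, 0 to 1 at 5 weeks, 0 to 2 between 5 weeks and 1 week, 0 to 1 for VC against wild-type CA1 (Kcnab3) and 11 to 15 for CA1 against hippocampus. With no filter the count went from 0 to 1 for VC against wild-type CA1 and for the difference between the CA1 and hippocampal effects (Kcnh1 in both). For CA1 against hippocampus 13 members became 2 with the scale block and up to 17 (no filter) under the other settings that keep 1 probe set per gene. Counted over all 44 tested probe sets of the members, 19 probe sets passed. The cause of these changes was not tested. In hippocampal comparisons the scale block and the higher scale alone both amount to leaving out wild type 1. Calls under these settings are therefore not separate checks, although each is counted below. Of 678 values of named genes under alternatives, 638 kept their direction and side of the threshold, 32 kept their direction but no longer passed, 8 newly passed and 0 reversed. Among arrays numbered 1 and 2, the replicate block left 0 members called with and without it in induced hippocampus, at 1 week and at 2 weeks, and the calls over all tested probe sets were 2 with the block and 0 without at 1 week, and 2 and 2 at 2 weeks. Signals near the floor of 6.04 limit what can be said of the 33 members that were not tested.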
